A study of Mus musculus with 9 samples.

Results

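The genes described here are 9 genes of gluconeogenesis and glucose handling in the liver of wild-type mice: G6pc, Slc37a4, Pck1, Fbp1, Pcx, Tat, Sds, Ppargc1a and Irs2. They were chosen by gene symbol for their place in the pathway, and all 9 were among the 21936 genes of the deposited expression table and among the 12557 that passed the filter on low counts. The livers were taken 2 h after an intraperitoneal injection. The injection was NaCl in the control group and retrorsine at 25 mg/kg or 50 mg/kg in the other groups, with 3 libraries per group and 9 in all. Retrorsine is a pyrrolizidine alkaloid, a plant toxin made reactive by cytochrome P450 enzymes of the liver. The labels used here give no age, sex, strain, feeding state or time of day, nor whether each library stands for its own animal. What the p-values weigh is then the spread between samples, which may be technical.

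Gluconeogenesis makes glucose from lactate, amino acids and glycerol, and the liver is its main site in a fasting animal. Glucagon, acting through cAMP, and glucocorticoids raise the transcription of its key genes, and insulin lowers it by keeping the factor FOXO1 out of the nucleus. Pyruvate enters through pyruvate carboxylase (Pcx) and phosphoenolpyruvate carboxykinase (Pck1), passes fructose-1,6-bisphosphatase (Fbp1), and leaves as free glucose through the glucose-6-phosphate transporter (Slc37a4) and glucose-6-phosphatase (G6pc). Tyrosine aminotransferase (Tat) and serine dehydratase (Sds) break down amino acids that feed the pathway, PGC-1alpha (Ppargc1a) is a coactivator of its genes, and insulin receptor substrate 2 (Irs2) carries the insulin signal in hepatocytes.

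G6pc rose 10.7-fold after 25 mg/kg, a call that held in every alternative fit. Pcx was at 0.682 of its NaCl level, a call that 12 of 19 alternative fits lost, among them each fit without 1 library of its groups. Pcx spans 111 kb, and all genes over 100 kb had a median log2 fold change of -0.73 at that dose. The other 7 genes did not pass the test at that dose, where 13.5% of all genes tested did, and after 50 mg/kg none of the 9 passed, where 15.1% of all genes did. For several of them the intervals are wide enough to hold changes of more than 2-fold. Around the pathway, 7 of 23 glucagon and cAMP signalling genes fell at 25 mg/kg and 6 at 50 mg/kg, beside 7.56% and 8.01% of all genes. Of these falls, 4 and 5 were in genes over 100 kb long, a class in which 32.6% and 36.3% of all genes fell. The insulin receptor gene Insr fell at both doses, and Trib3, whose product inhibits the kinase AKT in mouse liver, rose at both.

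The promoters of 3 members are shown because the pathway's transcriptional control is read there. G6pc rose, Pck1 is the member most often paired with it as a target of cAMP and FOXO1, and Ppargc1a is the coactivator of both and a target of cAMP. Each line gives the 250 bases before the RefSeq start of the gene on GRCm38.p6, 5′ to 3′ on the gene's strand. They lie at chr11:101367466-101367715 on the plus strand for G6pc, at chr2:173152823-173153072 on the plus strand for Pck1, and at chr5:51567726-51567975 on the minus strand for Ppargc1a. For G6pc and Pck1 the RefSeq start is not the gene start in the deposited table. Their windows run past those table starts, 101367561 for G6pc and 173153048 for Pck1. Motif positions below are counted from the RefSeq start. Capitals mark every match, on either strand, to the motifs searched.
G6pc: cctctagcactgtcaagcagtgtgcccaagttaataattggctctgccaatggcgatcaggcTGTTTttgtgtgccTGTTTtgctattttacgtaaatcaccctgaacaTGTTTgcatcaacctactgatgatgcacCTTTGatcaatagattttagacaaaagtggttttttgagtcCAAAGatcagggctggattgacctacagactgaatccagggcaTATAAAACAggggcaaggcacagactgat
Pck1: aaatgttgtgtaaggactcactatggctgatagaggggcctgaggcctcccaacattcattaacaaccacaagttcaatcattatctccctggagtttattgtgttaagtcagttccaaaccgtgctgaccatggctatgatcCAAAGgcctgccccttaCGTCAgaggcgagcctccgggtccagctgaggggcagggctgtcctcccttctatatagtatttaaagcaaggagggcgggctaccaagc
Ppargc1a: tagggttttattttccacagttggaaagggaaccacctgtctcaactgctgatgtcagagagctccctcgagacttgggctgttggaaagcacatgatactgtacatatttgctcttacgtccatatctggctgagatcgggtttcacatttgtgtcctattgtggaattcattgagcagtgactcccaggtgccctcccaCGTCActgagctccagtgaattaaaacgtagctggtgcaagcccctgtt

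The motifs were the cAMP response element TGACGTCA and its core TGACG, the forkhead core TGTTT and the FOXO site GTAAACA, the HNF4 core CAAAG, the TATA box TATAAA and the E-box CACGTG. The core TGACG lies within the full element and the forkhead core within the FOXO site. Of the 9 members, 8 matched a RefSeq promoter, with 11 starts in all; Sds had no entry. The G6pc promoter held 4 forkhead cores, whose first bases lie at -188, -174, -141 and -25 from the start, 2 HNF4 cores at -113 and -72, and a TATA box at -29 that overlaps the last forkhead core. It held 0 matches to TGACG. The Pck1 promoter held 1 TGACG core at -90 on the reverse strand and 1 HNF4 core at -107, with 0 forkhead cores. The Ppargc1a promoter held 1 TGACG core at -49 on the reverse strand. The Tat promoter held 2 forkhead cores, that of Irs2 held 1 beside 1 E-box, and that of Fbp1 held 0 matches to any of the motifs. Of the Slc37a4 starts, number 1 held 1 TGACG core and 1 forkhead core, and number 2 held 2 TGACG cores. Number 3 held 1 forkhead core and 1 TATA box. Pcx start 1 held 1 HNF4 core and 1 E-box, and its start 2 held 0 matches. Such matches are common: among 32851 RefSeq promoters of 250 bases, 17.8% held TGACG, 1.55% TGACGTCA, 46.4% TGTTT, 3.17% GTAAACA, 48.6% CAAAG, 12.4% TATAAA and 6.02% CACGTG. A match is a run of letters and not evidence of binding, and the lack of one says only that these letters are not in this window.

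Total counts were between 15241261 and 18691736 per library. Levels below are CPM, read counts over TMM-scaled library sizes, and changes are log2 fold changes with their SE from edgeR's quasi-likelihood test, called where the Benjamini-Hochberg adjusted p over all 12557 genes was under 0.05. The tissue label fits its markers: the 6 hepatocyte markers measured (of 7 listed) summed to 105300 to 143300 CPM in every library. Alb alone was at 92310 to 126800 CPM. The 9 pancreatic acinar markers summed to 196 to 4676 CPM with NaCl, to 11.2 to 18.1 after 25 mg/kg and to 9.84 to 278 after 50 mg/kg. NaCl replicate 1 held the highest sum, and 50 mg/kg replicate 2 the highest of the treated libraries. The 4 neutrophil markers summed to 176 CPM in 50 mg/kg replicate 3 and to at most 28.4 in every other library. Kupffer cell and macrophage markers summed to 276 to 358 CPM with NaCl and 362 to 503 CPM after 25 mg/kg. After 50 mg/kg they summed to 235 to 424 CPM. In the same order, erythroid markers summed to 47.6 to 121, 125 to 205 and 65.7 to 301 CPM. Intestine markers summed to 4.64 to 12.3, 13.5 to 20 and 6.74 to 17.1 CPM. Endothelial markers overlapped between groups, and adipose markers were at most 1.21 CPM. Their part in the levels of the members was not tested. Pancreatic endocrine markers and markers of the kidney's proximal tubule, another site of gluconeogenesis, were each under 1 CPM in sum in every library. In whole liver, fewer cells of a type and less RNA per cell cannot be told apart.

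G6pc was the member that changed most. It encodes the catalytic subunit of glucose-6-phosphatase, which performs the last step of glucose release (chromosome 11, 101367561 to 101377903, plus strand, GRCm38). Its level with NaCl was 23.1, 72.3 and 66.2 CPM in replicates 1, 2 and 3. After 25 mg/kg it was 291, 877 and 567 CPM, and after 50 mg/kg 146, 218 and 61.4 CPM. Every library of the 25 mg/kg group was above every NaCl and every 50 mg/kg library, while 50 mg/kg replicate 3 lay among the NaCl libraries. The log2 fold change at 25 mg/kg was 3.42 ± 0.60 (SE; 95% interval 2.08 to 4.77; adjusted p = 0.0073, n = 3 against 3 libraries, edgeR), and only 50 of the 12557 genes had a higher one. This call held in all 19 alternative fits, with log2 fold changes of 2.99 to 3.74 and adjusted p between 1.9e-09 and 0.031. It was 3.06 without NaCl replicate 1 (adjusted p = 0.023), the control library lowest in G6pc and highest in acinar markers.

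The G6pc difference from NaCl at 50 mg/kg was 1.39 ± 0.56 (95% interval 0.15 to 2.64; edgeR adjusted p = 0.12). DESeq2 called it (1.40, adjusted p = 0.033), and it was 0.58 (adjusted p = 0.52) in a fit without NaCl replicate 1 and 50 mg/kg replicate 2, the libraries richest in acinar reads of their groups. Between the doses the difference, 50 mg/kg minus 25 mg/kg, was -2.03 ± 0.57 (95% interval -3.30 to -0.76), with an unadjusted p of 0.0052 and an adjusted p of 0.55 in edgeR. DESeq2 called this difference (adjusted p = 0.024). Only 14 genes had a lower fold change between the doses. The level after 50 mg/kg was thus below that after 25 mg/kg in every library, without a call in edgeR's fit.

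The partner of G6pc did not rise with it. Slc37a4 encodes the transporter that carries glucose-6-phosphate into the endoplasmic reticulum, where G6pc cleaves it (chromosome 9, 44396852 to 44402968, plus strand). With NaCl it stood at 349, 369 and 358 CPM, after 25 mg/kg at 297, 256 and 271, and after 50 mg/kg at 263, 456 and 378. The 25 mg/kg libraries lay below all NaCl libraries, with a log2 fold change of -0.39 ± 0.19 that did not pass (edgeR adjusted p = 0.22). At 50 mg/kg the difference was 0.03 ± 0.19 (adjusted p = 0.94), with the 3 libraries on both sides of the NaCl range; it turned to -0.06 with library totals in place of TMM.

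Per length, as FPKM, the ratio of G6pc to Slc37a4 transcripts was 0.0782, 0.232 and 0.219 with NaCl. It was 1.16, 4.06 and 2.48 after 25 mg/kg, and 0.655, 0.565 and 0.192 after 50 mg/kg. G6pc thus exceeded its transporter in every library of the 25 mg/kg group and in none of the other 6. This ratio was chosen after its values were seen and was not tested.

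**Figure D1:**
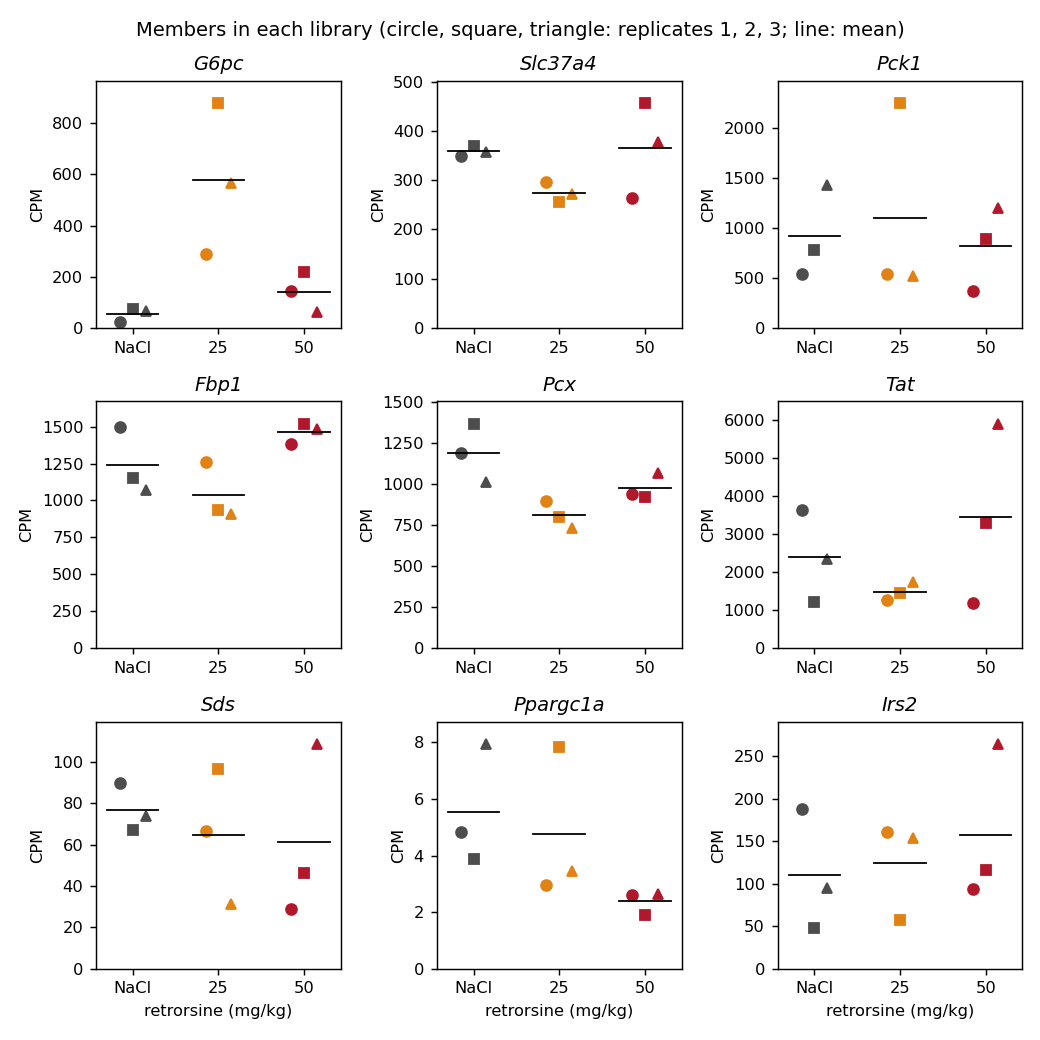
Level of each of the 9 genes in CPM (vertical axes, from 0) in the 9 libraries, by injection (horizontal axes: NaCl, retrorsine 25 or 50 mg/kg). Circles, squares and triangles are replicates 1, 2 and 3 and lines are group means; G6pc is at 291 to 877 CPM after 25 mg/kg and at most 72.3 with NaCl, while Pck1, Tat, Sds and Irs2 scatter widely within groups.

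Of the entry steps from pyruvate, Pcx was lower at 25 mg/kg, where G6pc was higher, and Pck1 was not called at either dose. Pcx, the mitochondrial enzyme that turns pyruvate into oxaloacetate (chromosome 19, 4510472 to 4621752, plus strand), was at 1188, 1364 and 1014 CPM with NaCl and at 897, 800 and 734 CPM after 25 mg/kg. After 50 mg/kg it was at 938, 920 and 1066 CPM. The 25 mg/kg libraries lay below every NaCl and every 50 mg/kg library. The log2 fold change at 25 mg/kg was -0.55 ± 0.16 (95% interval -0.90 to -0.20; edgeR adjusted p = 0.044), close to the threshold. The call was lost in 12 of 19 alternative fits, among them each fit without 1 library of its groups, with fold changes of -0.66 to -0.44 and adjusted p of 0.012 to 0.16 over all 19. The value at 50 mg/kg was -0.29 ± 0.16 (adjusted p = 0.24). Pcx spans 111 kb, and all genes over 100 kb had medians of -0.73 at 25 mg/kg and -0.78 at 50 mg/kg. The part of gene length in the fall of Pcx was not tested.

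Pck1 encodes the cytosolic enzyme that turns oxaloacetate into phosphoenolpyruvate and is a standard fasting and glucagon target (chromosome 2, 173153048 to 173159273, plus strand). Its level was 538, 779 and 1426 CPM with NaCl, 535, 2244 and 523 CPM after 25 mg/kg and 366, 892 and 1202 CPM after 50 mg/kg. The groups overlapped, and 1 library, 25 mg/kg replicate 2, stood above all others. Within its group that library was also the highest in G6pc (877 CPM), Sds (96.5 CPM) and Ppargc1a (7.84 CPM). It was the lowest there in Slc37a4 (256 CPM) and Irs2 (57.7 CPM). The log2 fold change at 25 mg/kg was 0.27 ± 0.63 (edgeR adjusted p = 0.83) and turned to -0.79 without that library. The value at 50 mg/kg was -0.16 ± 0.63 (adjusted p = 0.89). With 95% intervals of -1.13 to 1.67 and -1.56 to 1.24, changes of more than 2-fold in either direction were within the range that these libraries allow.

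Fbp1 removes a single phosphate from fructose-1,6-bisphosphate and opposes phosphofructokinase (chromosome 13, 62864753 to 62888282, minus strand). It was at 1495, 1151 and 1074 CPM with NaCl, 1258, 938 and 908 CPM after 25 mg/kg, and 1384, 1518 and 1486 CPM after 50 mg/kg. The libraries of the doses did not overlap, those of 50 mg/kg being higher by 0.50 ± 0.18 on the log2 scale (unadjusted p = 0.020, edgeR adjusted p = 0.55). Against NaCl the differences were -0.26 ± 0.18 and 0.24 ± 0.18 (adjusted p = 0.37 and 0.40).

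The amino acid enzymes varied widely within some of the groups. Tat is a classical glucocorticoid target of the hepatocyte (chromosome 8, 109990437 to 109999803, plus strand). It was at 3644, 1228 and 2347 CPM with NaCl, 1271, 1449 and 1747 CPM after 25 mg/kg, and 1188, 3283 and 5897 CPM after 50 mg/kg. The highest level was thus in 50 mg/kg replicate 3, the library with the neutrophil signal, and the next in NaCl replicate 1; what part the cells behind those markers have in it was not tested. The log2 fold changes were -0.69 ± 0.52 at 25 mg/kg and 0.52 ± 0.52 at 50 mg/kg (edgeR adjusted p = 0.42 and 0.53), and the latter was -0.11 without 50 mg/kg replicate 3. Between the doses, 50 mg/kg minus 25 mg/kg, Tat differed by 1.215 ± 0.52 (edgeR unadjusted p = 0.043, adjusted p = 0.56), with overlapping libraries.

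Sds, which splits serine into pyruvate and ammonia (chromosome 5, 120476526 to 120483932, plus strand), was at 89.8, 67.2 and 74.2 CPM with NaCl, 66.5, 96.5 and 31.4 CPM after 25 mg/kg, and 28.8, 46.4 and 109 CPM after 50 mg/kg. The groups overlapped, and the log2 fold changes were -0.25 ± 0.49 and -0.33 ± 0.49 (edgeR adjusted p = 0.79 and 0.68). In GENCODE M21, 360 exon bases of Sds are shared with Plbd2 and 141 with Gm15690, both on the other strand. The strand setting of the counting is not given in the sources used here, so reads from those bases cannot be told apart.

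Of the regulators, Ppargc1a was scarce (chromosome 5, 51454250 to 51567726, minus strand). It was at 4.84, 3.89 and 7.93 CPM with NaCl, which are 72, 77 and 158 reads. After 25 mg/kg it was at 2.96, 7.84 and 3.46 CPM, and after 50 mg/kg at 2.61, 1.88 and 2.66 CPM, which are 43, 29 and 39 reads. All 50 mg/kg libraries lay below all libraries of both other groups. The log2 fold change at 50 mg/kg was -1.22 ± 0.43 (95% interval -2.18 to -0.26) and did not pass (edgeR adjusted p = 0.085), although it did with DESeq2 (adjusted p = 0.042) and without 25 mg/kg replicate 2 (0.043). At 25 mg/kg it was -0.23 ± 0.42 (adjusted p = 0.77), turning to 0.12 without NaCl replicate 3.

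Irs2 is induced by FOXO1 and by cAMP and lowered by insulin (chromosome 8, 10984681 to 11008458, minus strand). It was at 188, 48.2 and 95.2 CPM with NaCl, 161, 57.7 and 154 CPM after 25 mg/kg, and 93.8, 116 and 264 CPM after 50 mg/kg. The groups overlapped throughout, with log2 fold changes of 0.17 ± 0.56 and 0.52 ± 0.56 (edgeR adjusted p = 0.87 and 0.57). In GENCODE M21 its exons share 162 bases with 9530052E02Rik on the other strand, with the same limit as for Sds.

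Over the members together, 1 of 9 rose and 1 of 9 fell at 25 mg/kg, where 5.90% of all genes tested rose, 7.56% fell and 13.5% were called in all. The libraries of 3 members (G6pc, Slc37a4 and Pcx) did not overlap, against 36.5% of all genes. At an unadjusted p under 0.05 there were 2 members, against 28.6% of all genes. The median log2 fold change of the members was -0.25, beside 0.01 over all genes. At 50 mg/kg 0 of 9 were called by edgeR, with 2 at an unadjusted p under 0.05 (G6pc and Ppargc1a), against 31.2% of all genes; DESeq2 called these 2. Of all genes 15.1% were called there, 7.09% higher and 8.01% lower. Only Ppargc1a did not overlap, against 35.0% of all genes, and the members' median was 0.03 beside 0.00051. Between the doses 0 of 9 members and 1 gene of all (0.00796%) were called, with 4 members at an unadjusted p under 0.05 (G6pc, Fbp1, Tat and Ppargc1a), against 8.59% of all genes. DESeq2 called 1 member there, G6pc, and 71 genes. The libraries of 4 members (G6pc, Fbp1, Pcx and Ppargc1a) did not overlap between the doses, against 11.4% of all genes. The retrorsine comparisons share the same 3 NaCl libraries.

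**Figure D2:**
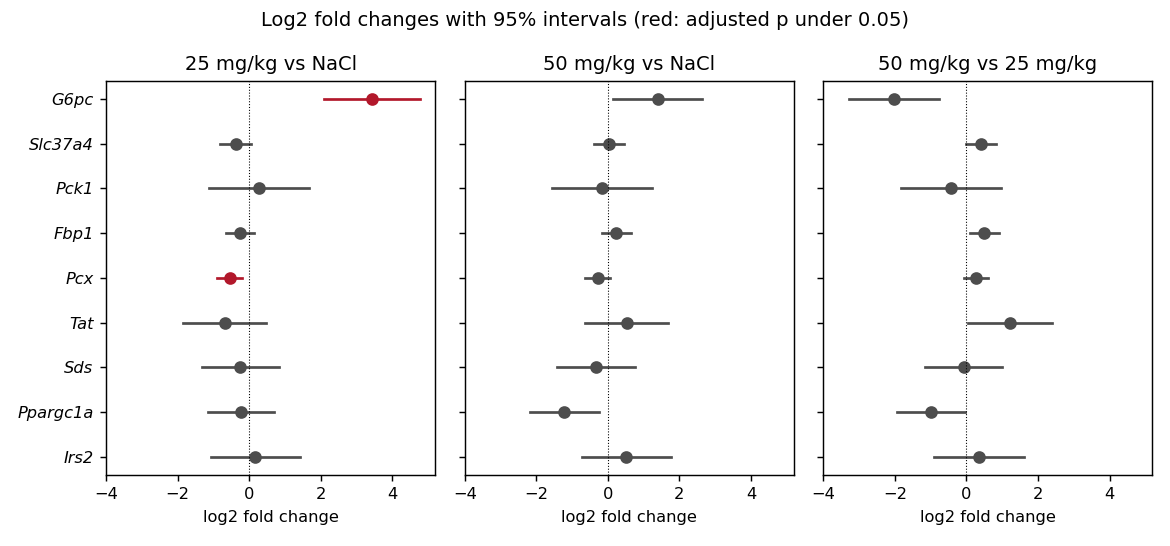
Log2 fold change (points) with its 95% interval (lines) for each member in the 3 comparisons, from edgeR's fit of all 9 libraries with 3 per group; red marks an adjusted p under 0.05. G6pc at 3.42 and Pcx at -0.55 in the 25 mg/kg comparison are the called values.

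The members differed in how tightly libraries of a group agreed. The within-group SD of log2 CPM, pooled over the groups, was 0.96 for Pck1, 0.89 for G6pc, 0.87 for Irs2, 0.83 for Tat and 0.74 for Sds, against a median of 0.33 over all genes tested. These 5 genes lay between the 89.1st and the 94.7th percentile of all genes. Pcx (0.16), Fbp1 (0.21) and Slc37a4 (0.24) lay below that median, and Ppargc1a (0.54) above it. A difference the size of that of Pcx could therefore not be seen in Pck1, Tat or Irs2 with these libraries.

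The order of the levels per length was led by the amino acid enzyme and the bisphosphatase. With NaCl the mean FPKM was 997 ± 431 (SD, n = 3) for Tat, 737 ± 71.7 for Fbp1, 277 ± 152 for Pck1, 255 ± 44.8 for Pcx and 128 ± 13.3 for Slc37a4. Below these came Sds at 46.1 ± 3.37, G6pc at 23.4 ± 12.7, Irs2 at 17.2 ± 9.73 and Ppargc1a at 0.865 ± 0.362 FPKM. Tat and Fbp1, Pck1 and Pcx, and G6pc and Irs2 were each within their spread of one another. G6pc moved from place 7 of 9 with NaCl to place 4 after 25 mg/kg (243 ± 119 FPKM) and place 6 after 50 mg/kg (57.4 ± 33.1 FPKM).

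Across the 9 libraries the genes most like each member, by Pearson's r of log2 CPM among genes with a mean of at least 1 CPM, were not other members. For G6pc they were Khnyn (r = 0.985), Dnmbp (0.982) and Mturn (0.967). For Pcx they were Dpp3 (0.977), Lman2 and Serpina1c, for Tat Mxd1 (0.972), Fbxo33 and Slc38a2, for Slc37a4 Zadh2 (0.965), Txnrd2 and Bri3bp, and for Irs2 Gpr35 (0.957), Apex1 and Rasd1. For Ppargc1a they were Cnot6l (0.954), Robo2 and Ttc19, for Pck1 Cep63 (0.939), Abcg5 and Tctex1d2, for Fbp1 Zfp697 (0.933), Traf4 and C2, and for Sds Anxa11 (0.921), Hpf1 and Rtca. Among the members themselves the largest values were 0.68 for Tat with Irs2, 0.66 for Pck1 with Sds and -0.85 for G6pc with Pcx. These are descriptions over 9 libraries that share their groups and library sizes, with no test.

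Each irreversible step of gluconeogenesis has a glycolytic enzyme working against it, and their ratio within a library does not depend on the scaling. They are given as log2 ratios of counts per kb. Fbp1 over Pfkl, the liver phosphofructokinase, was 6.03, 5.34 and 5.54 with NaCl, 5.83, 5.85 and 5.72 after 25 mg/kg and 6.26, 6.19 and 6.05 after 50 mg/kg. The 50 mg/kg libraries were above all others, though by little: 0.53 over NaCl and 0.37 over 25 mg/kg (exact two-sided permutation p = 0.1 for each, the smallest that 3 against 3 libraries can give). At 25 mg/kg the difference from NaCl was 0.17 (exact permutation p = 0.5).

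Pck1 over Pklr, the liver pyruvate kinase, was 0.58, 0.33 and 1.47 with NaCl, 1.16, 3.12 and 1.00 after 25 mg/kg and -1.10, 0.84 and 0.91 after 50 mg/kg. The difference from NaCl was 0.97 at 25 mg/kg and -0.57 at 50 mg/kg (exact permutation p = 0.3 and 0.6), and between the doses it was -1.54 (exact permutation p = 0.1). Pklr fell at 25 mg/kg, from 339, 584 and 486 CPM to 225, 244 and 246 CPM (log2 fold change -0.98 ± 0.22, edgeR adjusted p = 0.021). After 50 mg/kg it was at 739, 468 and 602 CPM. These 2 ratios made 6 comparisons, and none can pass an adjusted threshold of 0.05 in this design.

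**Figure D3:**
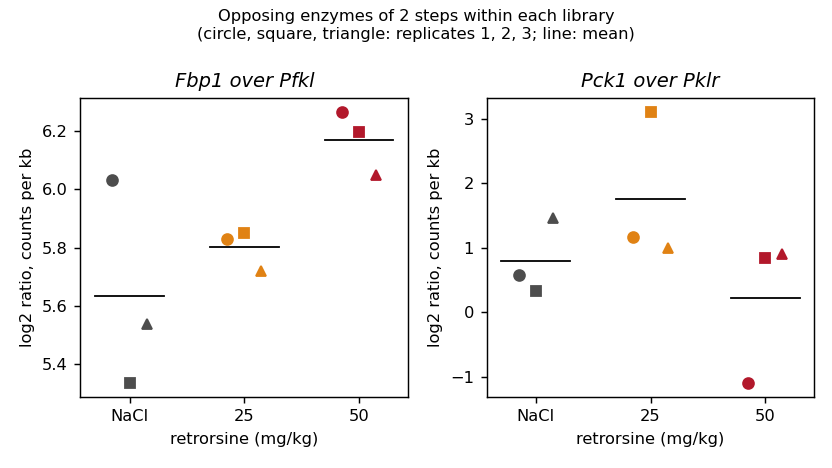
Log2 ratio of counts per kb (vertical axes) of each gluconeogenic enzyme to the glycolytic enzyme that opposes it, in each library, by injection (horizontal axes); symbols are replicates 1, 2 and 3 and lines are group means. Fbp1 over Pfkl is above all other libraries after 50 mg/kg, at 6.05 to 6.26.

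Genes around the pathway were read from 10 lists with 186 genes tested. At 25 mg/kg 9 rose and 19 fell (15.1%), and at 50 mg/kg 14 rose and 17 fell (16.7%), shares near the 13.5% and 15.1% of all genes. Between the doses 0 of 186 were called by edgeR, with 33 (17.7%) at an unadjusted p under 0.05 beside 8.59% of all genes, and DESeq2 called 8. The 28 calls at 25 mg/kg became 12 without 25 mg/kg replicate 3, 14 without 25 mg/kg replicate 1 or NaCl replicate 3, and 17 without NaCl replicate 1. The 31 at 50 mg/kg became 11 without NaCl replicate 3, 20 without NaCl replicate 2 and 50 with DESeq2. The lists were not tested as sets, and some genes stand in several. The counts of each list below stand beside 5.90% of all genes higher and 7.56% lower at 25 mg/kg. At 50 mg/kg these shares were 7.09% and 8.01%.

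The glucagon and cAMP list held the largest share of calls at 25 mg/kg among the 10. Of its 23 genes tested 1 rose and 7 fell at 25 mg/kg, and 1 rose and 6 fell at 50 mg/kg, with medians of -0.47 and -0.39. The gene that rose at both doses was Crem, which encodes cAMP-inducible modulators of the cAMP response, from 21.8, 10.3 and 15.2 CPM to 62.1, 43.4 and 58.3 CPM at 25 mg/kg and to 66.9, 39.7 and 41.6 CPM at 50 mg/kg. Its log2 fold changes were 1.79 ± 0.31 and 1.65 ± 0.30 (edgeR adjusted p = 0.0066 and 0.0091).

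Adcy9, an adenylate cyclase, fell from 21.5, 27.8 and 23.1 CPM to 6.54, 5.71 and 4.92 CPM at 25 mg/kg and to 5.46, 6.56 and 7.08 CPM at 50 mg/kg. Its fold changes were -2.08 ± 0.20 and -1.92 ± 0.20 (edgeR adjusted p = 0.00085 and 0.0014). The phosphodiesterase genes Pde4d and Pde3b, whose products break down cAMP, fell at both doses too, as did the CREB coactivator gene Crtc3 and the protein kinase A subunit gene Prkar2a. The glucagon receptor gene Gcgr was not called: its mean was 318 CPM with NaCl, 222 CPM after 25 mg/kg (edgeR adjusted p = 0.071) and 280 CPM after 50 mg/kg (0.49).

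Of 21 insulin signalling genes tested, 2 rose and 3 fell at 25 mg/kg and 2 rose and 5 fell at 50 mg/kg, with medians of -0.37 and -0.37. Insr, the insulin receptor, fell from 189, 126 and 144 CPM to 52.3, 63.7 and 49.5 CPM at 25 mg/kg and to 49.7, 48.0 and 82.8 CPM at 50 mg/kg. The fold changes were -1.47 ± 0.25 and -1.34 ± 0.25 (edgeR adjusted p = 0.0065 and 0.0090). Phlpp1, a phosphatase that acts on AKT, fell by 1.92 and 2.22 on the log2 scale (adjusted p = 0.0093 and 0.0057).

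Trib3 was at 4.64, 4.39 and 3.51 CPM with NaCl, at 34.6, 47.0 and 40.1 CPM after 25 mg/kg and at 37.0, 54.2 and 25.3 CPM after 50 mg/kg. It rose by 3.28 ± 0.29 and 3.22 ± 0.29 (edgeR adjusted p = 0.00057 and 0.0012); besides its role on AKT it is a target of the stress factors ATF4 and CHOP. Irs1, the paralog of Irs2, rose from a mean of 9.13 to 60.0 CPM at 25 mg/kg (2.71 ± 0.64, adjusted p = 0.023). Its mean at 50 mg/kg was 30.5 CPM (1.74 ± 0.62, adjusted p = 0.088). Trib1 rose at 50 mg/kg, by 2.07 ± 0.43 (adjusted p = 0.013).

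Of 13 genes tested in the list of FOXO1 targets, 2 rose and 1 fell at 25 mg/kg and 4 rose at 50 mg/kg, with medians of 0.39 and 0.59. This list counts Foxo1 itself and leaves out the members, Pck1 and Irs2 among them. Ccng2, a cyclin gene, rose from 13.3, 9.85 and 19.0 CPM to 35.9, 80.5 and 61.7 CPM at 25 mg/kg and to 42.9, 47.4 and 23.2 CPM at 50 mg/kg (2.08 ± 0.37 and 1.43 ± 0.37, edgeR adjusted p = 0.0081 and 0.030). Mttp, which loads lipid onto lipoproteins, fell at 25 mg/kg (-0.46 ± 0.13, adjusted p = 0.045), and the repressor gene Bcl6 rose at 50 mg/kg (2.34 ± 0.49, adjusted p = 0.013). Pdk4, the kinase that shuts off pyruvate dehydrogenase and so spares pyruvate for Pcx, rose from 5.58, 6.31 and 7.53 CPM to 18.8, 17.3 and 35.9 CPM at 25 mg/kg and to 19.9, 34.2 and 12.5 CPM at 50 mg/kg. Its fold changes were 1.89 ± 0.39 and 1.77 ± 0.39 (edgeR adjusted p = 0.014 and 0.017). Igfbp1, a secreted FOXO1 target, had means of 612, 1073 and 2855 CPM with NaCl, 25 mg/kg and 50 mg/kg and was not called at either dose (adjusted p = 0.60 and 0.14). Foxo1 itself was at means of 21.6, 15.1 and 13.7 CPM (adjusted p = 0.21 and 0.11).

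Of the 32 transcription factors and coactivators of gluconeogenic genes, 2 rose and 2 fell at 25 mg/kg and 3 rose and 3 fell at 50 mg/kg. Cry2, a clock repressor that also restrains glucagon signalling, rose by 1.32 ± 0.18 and 1.09 ± 0.17 (edgeR adjusted p = 0.0024 and 0.0053). Onecut1, a hepatocyte factor, fell from 27.4, 71.7 and 26.1 CPM to 6.26, 1.86 and 9.09 CPM at 25 mg/kg (-2.85 ± 0.55, adjusted p = 0.010) and to a mean of 12.1 CPM at 50 mg/kg (-1.79 ± 0.52, adjusted p = 0.046). Esrrg, a nuclear receptor that activates G6pc and Pck1 in mouse liver, fell from 7.59, 4.90 and 5.87 CPM to 0.284, 0.199 and 0.812 CPM at 25 mg/kg (-3.77 ± 0.78, adjusted p = 0.014). At the higher dose it was at 0.121, 1.69 and 1.70 CPM (-2.39 ± 0.71, adjusted p = 0.0499). It spans 606 kb. The other calls of this list were Cry1, higher at 25 mg/kg (0.68), and at 50 mg/kg Bcl6 and Prmt5 (0.89), higher, and the acetyltransferase gene Kat2b (-0.91), lower. Among genes named for their roles after their values were seen, Hnf4a had means of 1078, 1114 and 945 CPM with NaCl, 25 mg/kg and 50 mg/kg, and the glucocorticoid receptor Nr3c1 47.4, 48.2 and 36.8 CPM, without a call at either dose. The cAMP factor Creb1 and its coactivator Crtc2, of the cAMP list, were at means of 9.51, 8.30 and 7.64 CPM and of 50.3, 34.0 and 44.0 CPM, also without a call.

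Among the opposing and neighbouring enzymes, 2 of 18 glycolysis-specific genes fell at 25 mg/kg, and 1 rose and 1 fell at 50 mg/kg. Pfkfb1, the bifunctional enzyme that sets fructose-2,6-bisphosphate in liver, fell from 100, 101 and 93.7 CPM to 30.4, 34.8 and 36.5 CPM at 25 mg/kg (-1.54 ± 0.16, edgeR adjusted p = 0.0011). It fell to 39.6, 47.3 and 54.5 CPM at 50 mg/kg (-1.06 ± 0.16, adjusted p = 0.0041), where its paralog Pfkfb2 rose (0.85 ± 0.19, adjusted p = 0.019). Of 20 glycogen genes, 1 rose and 1 fell at 25 mg/kg and 1 rose and 2 fell at 50 mg/kg. Ppp1r3b, which brings the phosphatase to glycogen in hepatocytes, fell from 359, 336 and 298 CPM to 72.1, 86.8 and 107 CPM and to 94.5, 180 and 89.8 CPM (-1.90 ± 0.28 and -1.45 ± 0.27, adjusted p = 0.0036 and 0.0098). Nhlrc1, the ubiquitin ligase malin, rose by 2.13 and 2.18 from a mean of 1.55 CPM (adjusted p = 0.022 and 0.019), and Phka2, a phosphorylase kinase subunit, fell at 50 mg/kg (-0.80 ± 0.23, adjusted p = 0.041).

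Of 13 genes of the ChREBP and SREBP1c response to glucose and insulin, Elovl6 and Pklr fell at 25 mg/kg, and G6pdx and Khk rose at 50 mg/kg. The medians of this list were -0.28 and 0.40. Between the doses its median was 0.63, and 8 of the 13 (61.5%) had an unadjusted p under 0.05 in edgeR, beside 8.59% of all genes. None of them was called there. Of 24 genes of amino acid and glycerol entry, Gpt2 fell at 25 mg/kg (-0.57 ± 0.14, edgeR adjusted p = 0.028) and 0 were called at 50 mg/kg, where Tdo2 alone had an unadjusted p under 0.05 (-0.85 ± 0.31, adjusted p = 0.093). Of 17 genes of pyruvate and lactate handling, Pdk4 rose and Dlat fell at 25 mg/kg, and Pdk4 and Pdp1 rose at 50 mg/kg. Of 12 genes listed with the glycolytic enzymes that gluconeogenesis runs in reverse, Aldoa rose at both doses (0.81 ± 0.16 and 0.92 ± 0.16, edgeR adjusted p = 0.012 and 0.0077). Pck2, G6pc3, Mdh1 and Mdh2, which are not glycolytic enzymes, were counted among the 12. Between the doses, the genes with the lowest p of each list, all higher after 50 mg/kg and none called, were Elovl6, Pklr, Gpi1, Prmt1, Gadd45a, Trib1, Pde4b, Slc38a2, Slc16a1 and Pygl (edgeR adjusted p from 0.21 to 0.55). After 50 mg/kg Pde4b was at 59.4, 46.8 and 303 CPM and Gadd45a at 1.94, 14.0 and 27.8 CPM, both highest in replicate 3. Other listed genes were lower after 50 mg/kg at an unadjusted p under 0.05 in edgeR, among them Tdo2, Aqp9, Oat and Klf15.

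**Figure D4:**
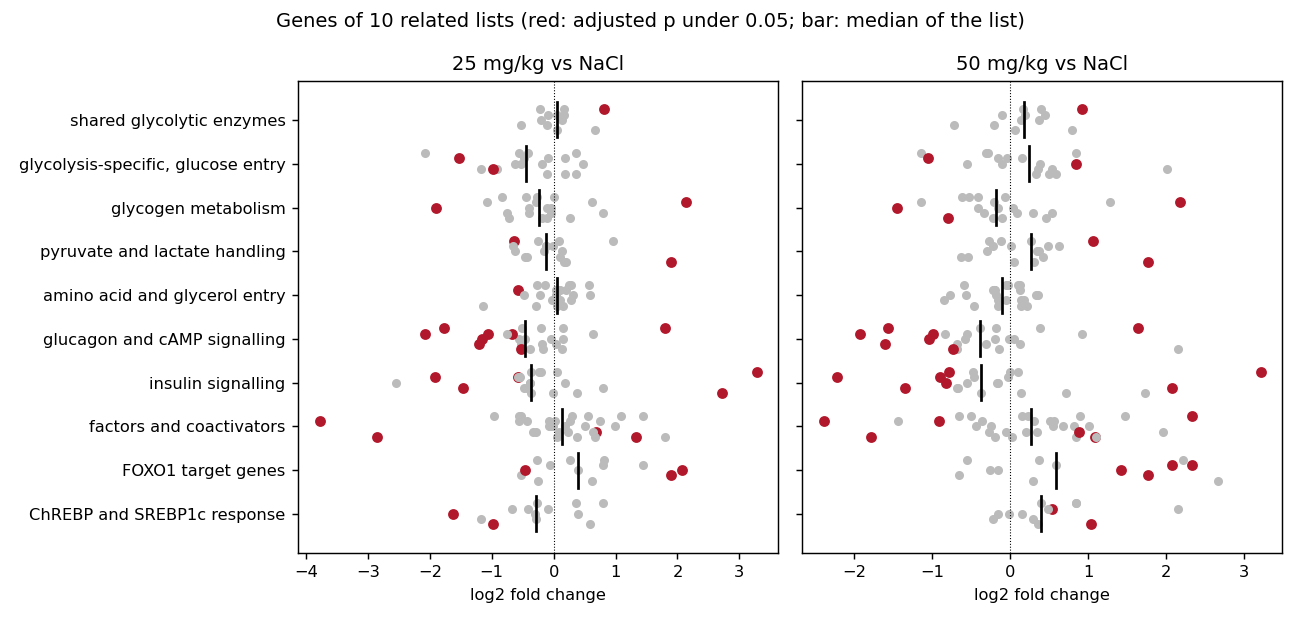
Log2 fold change (horizontal axes) of every tested gene of the 10 lists around the pathway at each dose against NaCl; red marks an adjusted p under 0.05 in edgeR's fit, bars are list medians and the vertical scatter has no meaning. In the glucagon and cAMP list 7 and 6 genes are called lower, and Trib3 is the highest point of the insulin list.

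Gene length moved with these calls. Among all genes tested, those spanning over 100 kb had median log2 fold changes of -0.73 at 25 mg/kg and -0.78 at 50 mg/kg, and 32.6% and 36.3% of them fell. In genes under 5 kb the medians were 0.28 and 0.35, and 2.08% and 0.967% fell. Pcx (111 kb) and Ppargc1a (113 kb) are the members over 100 kb, and G6pc spans 10.3 kb, where the median of genes of 10 to 25 kb was 0.14 at 25 mg/kg. The cAMP list held 8 genes over 100 kb among 23, and 4 of its 7 falls at 25 mg/kg and 5 of its 6 falls at 50 mg/kg were such genes. Insr (158 kb) and Phlpp1 (222 kb) are such genes too, while Pfkfb1 (55.6 kb), Onecut1 (29.9 kb) and Ppp1r3b (12.4 kb) are shorter. The part of gene length in the falls of single genes was not tested.

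**Figure D5:**
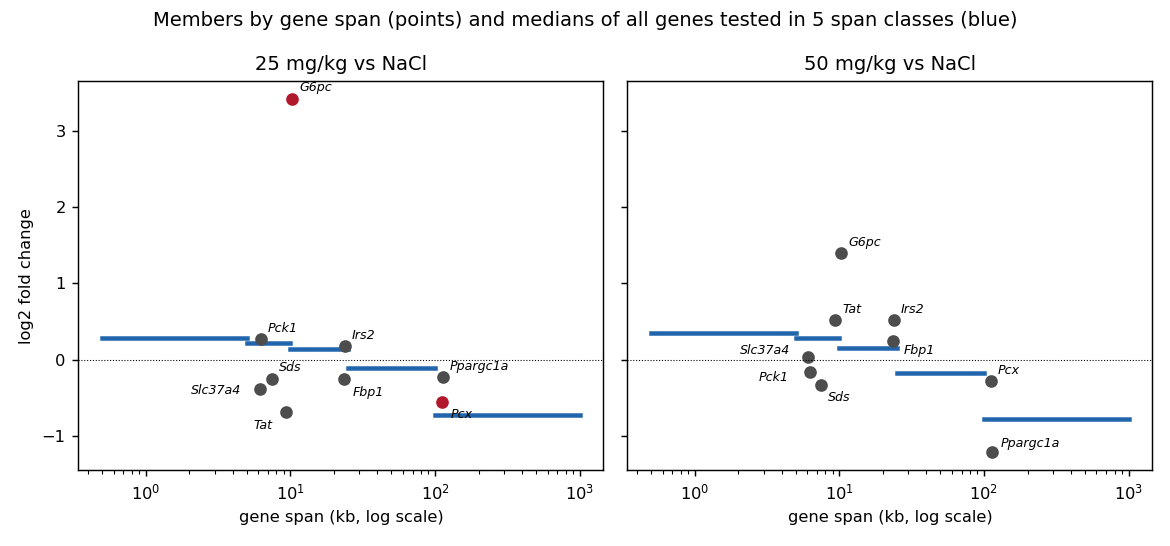
Log2 fold change of the 9 members (points, red where the adjusted p is under 0.05) against gene span in kb on a log axis, for each dose against NaCl; blue lines are medians of all genes tested in 5 span classes, drawn from 0.5 to 1000 kb. Pcx and Ppargc1a lie in the longest class, whose medians are -0.73 and -0.78, and G6pc lies far above the median of its class at 25 mg/kg.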

How the data were processed

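Poly(A) RNA of mouse liver was sequenced. Per the submitters' processing notes the aligner was HISAT2 and the build GRCm38; for the counting tool, annotation and strand the setting was not given in the sources used here. The deposited table holds the authors' read counts per gene, whole and not normalized, and the authors' FPKM values. The deposited FPKM equal count over gene length and library total within 1% for all 133506 values above 0, and were used only to set genes side by side per length. All 9 members have the same start and end in GENCODE M21.

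The fit used edgeR 4.0.16 in R 4.3.3: filterByExpr, TMM scaling, all 9 libraries in 1 model with a mean for each group (residual df 6), quasi-likelihood test, and Benjamini-Hochberg adjustment over 12557 genes with a threshold of 0.05. SEs were derived from the fold change and its F. Log2 CPM used a prior count of 2. Ratios were tested by exact two-sided permutation. Alternatives were other scalings, DESeq2 1.42.0, limma-voom (limma 3.58.1), no filter, the compared groups only, a replicate block and libraries left out. The fit was tested on simulated data in which every gene had the same relative spread. That test does not cover genes that vary as widely within groups as Pck1, G6pc, Irs2, Tat or Sds. No library repeats another of its group: the mean chi-square of a gene between them was 43.9 to 113.

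The members, the gene lists and the tests were chosen with earlier results of these data known. Named genes are all members, per list up to 3 called genes with the lowest p in each comparison (or the lowest p where none was called), the 3 genes most like each member, and the opposing enzymes. Irs1, Cry1, Prmt5, Crtc3, Pde3b, Gcgr, Foxo1, Igfbp1, Hnf4a, Nr3c1, Creb1 and Crtc2 were named besides, after their values were seen. Tf of the hepatocyte list was not analysed here, and 1 planned ratio is not reported here.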

Additional observations from a re-analysis of the deposited data

How the results depend on the processing

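Of 19 alternatives, all kept the call of G6pc at 25 mg/kg. At 25 mg/kg genes called were 1690, but 1108 with the replicate block, 975 without NaCl replicate 1 and 50 mg/kg replicate 2 (the first pair), and 626 to 1850 with 1 library left out. At 50 mg/kg they were 1896, but 1229 with the block, 653 without the first pair, 1146 without NaCl replicate 1 and 50 mg/kg replicate 3 (the second pair), and 699 to 1921 with 1 left out. Between the doses 1 gene became 0 with library totals, the compared groups only, the block or without the first pair, 4 without the second pair, 71 with DESeq2 and 0 to 3 with 1 left out. Members called at 25 mg/kg were 1 in place of 2, Pcx being lost, without the filter, with the compared groups only, with the block and without either pair, and 1 to 2 with 1 left out. At 50 mg/kg they were 2 with DESeq2 and 0 to 1 with 1 left out, and between the doses 1 with DESeq2. Called list genes at 25 mg/kg were 18 with the block, 18 without the first pair and 12 to 28 with 1 left out; at 50 mg/kg 50 with DESeq2, 19 with the block, 13 without the first pair and 11 to 35 with 1 left out; between the doses 8 with DESeq2.

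The replicate numbers did not pair the libraries: deviations of same-numbered libraries correlated between -0.23 and 0.136, so the block says nothing of the size of an effect. The values that changed sign belong to uncalled members. With 1 library left out, Pck1 ranged from -0.79 to 0.74 at 25 mg/kg, -0.54 to 0.31 at 50 mg/kg and -0.81 to 0.63 between the doses. Sds ranged from -0.65 to 0.082, -1.04 to 0.024 and -0.79 to 0.32, and Irs2 from -0.19 to 0.79, -0.074 to 1.14 and -0.24 to 0.63. Ppargc1a ranged from -0.79 to 0.12 at 25 mg/kg, and at 50 mg/kg Slc37a4 from -0.16 to 0.23 and Tat from -0.11 to 0.95. Slc37a4 at 50 mg/kg was -0.059 with library totals, -0.0078 with limma-voom, and -0.18 and -0.014 without the first and second pair. Without either pair Pck1 at 25 mg/kg was -0.0021. Between the doses Sds was 0.085 without the first pair and Irs2 -0.24 without the second. The cause of these changes was not tested. No scaling moved the median of all genes by more than 0.083 in size (-0.083 with library totals at 50 mg/kg). The 3 libraries a group and the reads of Ppargc1a (29 to 158) limit what could be seen.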
